A study of Mus musculus with 36 samples.

Results

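GM501 and SAGE 1-step, 2 single-step culture media made for human assisted reproduction, were compared in sister half-embryos, that is, blastocysts grown from both blastomeres of the same mouse embryo. The members of the comparison are the 20 half-embryos of embryos 9 to 18, of 36 half-embryos in the series. Of each embryo, sister a was grown in GM501 (n = 10) and sister b in SAGE 1-step (n = 10), which gives 10 pairs. They were chosen by the embryo number and the medium in the labels, and no measured value entered the choice.

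All embryos came from the B6C3F1 x CD1 mating after hormonal stimulation of the mothers. KSOM(aa), a mouse embryo medium with amino acids, served both groups alike until the 2-cell stage. The blastomeres were then separated, each was cultured alone for a further 72 h (96 h in all, 4 dpc), and every blastocyst was lysed and hybridized to 1 Mouse Transcriptome Array. Both sisters of embryos 1 to 8 (16 half-embryos, 8 pairs) stayed in KSOM(aa) throughout and serve below as pairs with no difference in medium. A pair shares its genome and its first day of culture, so only the second phase of culture differed between GM501 and SAGE 1-step. GM501 always went to the sister lettered a and SAGE 1-step to the sister lettered b, so medium and letter cannot be told apart within a pair. A blastocyst is a mixture of cells measured whole, so fewer cells of a type and less RNA per cell cannot be told apart either.

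A mouse blastocyst has an outer trophectoderm, which pumps fluid into the cavity and later forms placenta, and an inner cell mass that divides into epiblast and primitive endoderm. Epiblast gives rise to the fetus and keeps Nanog, Sox2 and Pou5f1 active. Primitive endoderm, set apart under FGF signalling, uses Gata6 and later Sox17 and Gata4. A single-step medium leaves the embryo in one solution from fertilization to blastocyst. Such media differ in amino acids, energy substrates, ions and protein supplement, and genes of amino acid shortage, protein folding, lipid synthesis and ion transport are those usually read as responses to a medium.

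Signals are on the log2 scale, so that a difference of 1 is a factor of 2 in signal. Each difference is GM501 minus SAGE 1-step, averaged over the pairs. The array reports transcript clusters, each a set of probes read as a single gene or transcript. Of 40160 transcript clusters with a gene symbol, 22570 were detected, meaning that they lay above a background level on at least 50% of the arrays of GM501 or of SAGE 1-step. That level was set in each array at the 90th percentile over 1378 transcript clusters of odorant and vomeronasal receptors. The share of transcript clusters above that level was 54.3% ± 2.4 in GM501 half-embryos and 54.1% ± 2.1 in SAGE 1-step half-embryos (SD, n = 10 each), with a mean paired difference of 0.202 percentage points (exact sign-flip permutation test, 2-sided, p = 0.762) that was -0.239 without embryo 16. The other whole-array values also differed little. The paired differences averaged -0.01 for the median log2 signal (p = 0.893), -0.06 for Actb (p = 0.619), 0.05 for Gapdh (p = 0.838) and 0.23 for Hprt (p = 0.312), by the same exact permutation test. Without embryo 16 the difference of Hprt was 0.08. Rn18s, the 18S ribosomal RNA, had a difference of 0.19 on the log2 scale and was higher in GM501 in 8 of 10 pairs (exact permutation p = 0.0488, Benjamini-Hochberg adjusted p = 0.342 over 7 such measures). Without embryo 10, in which Rn18s was 17.19 in the GM501 half-embryo and 16.15 in the SAGE 1-step half-embryo, the paired differences ran only from -0.18 to 0.29.

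Embryos 9 to 14 and embryos 15 to 18 lay in separate ranges of signal in both media, a split that was drawn from the signals and not from the labels. On the 12 arrays of embryos 9 to 14 the log2 signal of Rn18s lay between 16.15 and 17.65, and on the 8 arrays of embryos 15 to 18 between 18.46 and 18.66. Gapdh lay between 13.90 and 15.24 in embryos 9 to 14 and between 15.55 and 15.90 in embryos 15 to 18. Since both sisters of a pair lie in the same set, the paired difference does not contain this gap. Most of the spread lay between embryos. Per detected transcript cluster, the median share of the sum of squares was 29.4% between both embryo sets (1 degree of freedom). It was 34.1% between embryos of a set (8 degrees of freedom) and 1.11% between the media (1 degree of freedom). The remainder, which is what differed between sisters beyond the mean medium difference, held 26.7% (9 degrees of freedom). These shares are not divided by their degrees of freedom. The embryo sets were drawn from the same signals, which can raise their share.

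The pairs of embryos 16, 10 and 9 stood apart in some of these values. In embryo 16 the GM501 half-embryo had 55.4% of transcript clusters above the detection level and the SAGE 1-step half-embryo 51.3%. The Hprt signal was 15.02 in the GM501 half-embryo and 13.51 in its SAGE 1-step sister. The other 9 SAGE 1-step half-embryos had an Hprt signal of 14.65 to 15.25. In SAGE 1-step sister 10b, the detected share was lower still, at 50.7%, and its Rn18s (16.15), Gapdh (13.90) and Actb (15.63) were the lowest of the SAGE 1-step half-embryos. The lowest detected share in either medium was that of GM501 sister 9a, at 50.2%. Its Hprt (14.12) was the lowest of the GM501 half-embryos. Values without embryo 16 are given below for some of the lists and genes, but not for the genes with the smallest unadjusted p.

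The distance between sisters was set beside that of sisters grown in 1 medium. Over the 22570 detected transcript clusters, the median absolute difference between sisters was 0.23 to 0.51 (median 0.28) in the 10 pairs split between GM501 and SAGE 1-step, and 0.23 to 0.32 (median 0.28) in the 8 pairs kept in KSOM(aa). The number of transcript clusters that differed by over 2 on the log2 scale was 181 to 1048 per split pair (median 319) and 204 to 646 per KSOM(aa) pair (median 352). The highest of these belonged to embryo 16, and embryo 9 followed with 684. The ranges overlap widely. The scan names place the KSOM(aa) arrays in a separate set, so this comparison carries no test.

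**Figure D1:**
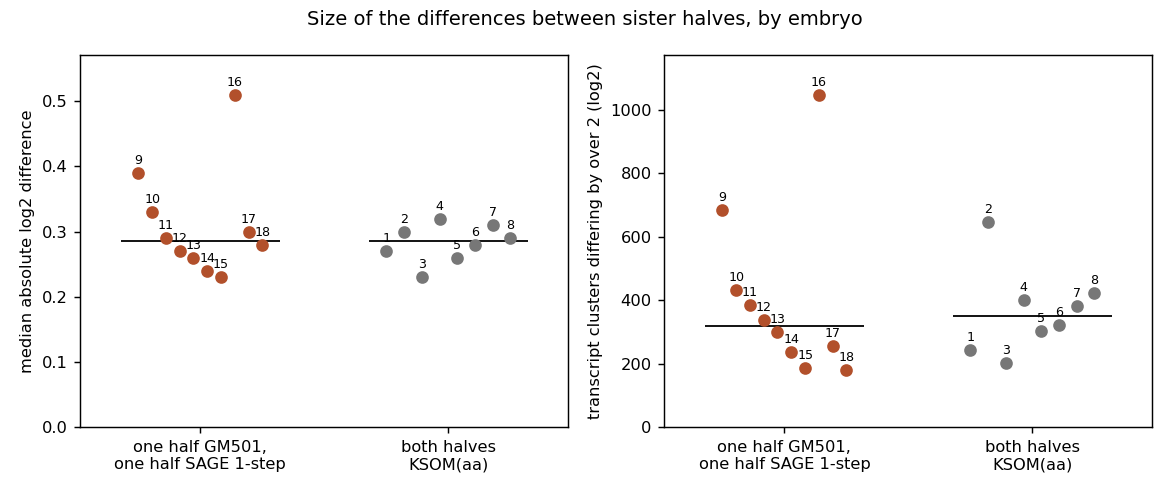
Sister differences per embryo over 22570 detected transcript clusters: on the left the median absolute log2 difference between sisters a and b, on the right the number of transcript clusters that differ by over 2 on the log2 scale. Each point is 1 embryo with its number, and the line is the median of the group. Embryo 16 (0.51 and 1048) lies above all others, and the remaining split pairs lie among or near the KSOM(aa) pairs.

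No gene differed between GM501 and SAGE 1-step at an adjusted p under 0.05. The paired limma fit, with the embryo as a block, called 0 of 40160 transcript clusters (0%), and the smallest adjusted p was 0.498. At an unadjusted p under 0.05 there were 1249 transcript clusters (3.11%), of which 620 (1.54%) were higher in GM501 and 629 (1.57%) were lower. At an unadjusted p under 0.01 there were 231. Without embryo 16 the call count was again 0, and 1323 transcript clusters (3.29%) were higher and 636 (1.58%) lower at an unadjusted p under 0.05. A t-test per transcript cluster also called 0 after Benjamini-Hochberg adjustment, both paired and unpaired, with 195 and 62 transcript clusters at an unadjusted p under 0.01. For comparison, the same fit of sister a minus sister b in KSOM(aa), where the letters carry no treatment, called 0 with 310 at an unadjusted p under 0.01, and put 4.56% under 0.05.

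The fit was precise enough to bound most genes. The median standard error of the paired difference was 0.15 for detected transcript clusters. For 21126 of the 22570 detected transcript clusters (93.6%), the 95% interval of the difference lay wholly between -1 and 1, that is, within a factor of 2 either way. For the other 1444 the interval reached beyond that, so a difference over 2-fold was not bounded there. The median absolute difference of the detected transcript clusters was 0.095, and 95 of them had a mean difference over 1 in either direction. The number of arrays limits the precision, and the pairs are separate embryos.

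**Figure D2:**
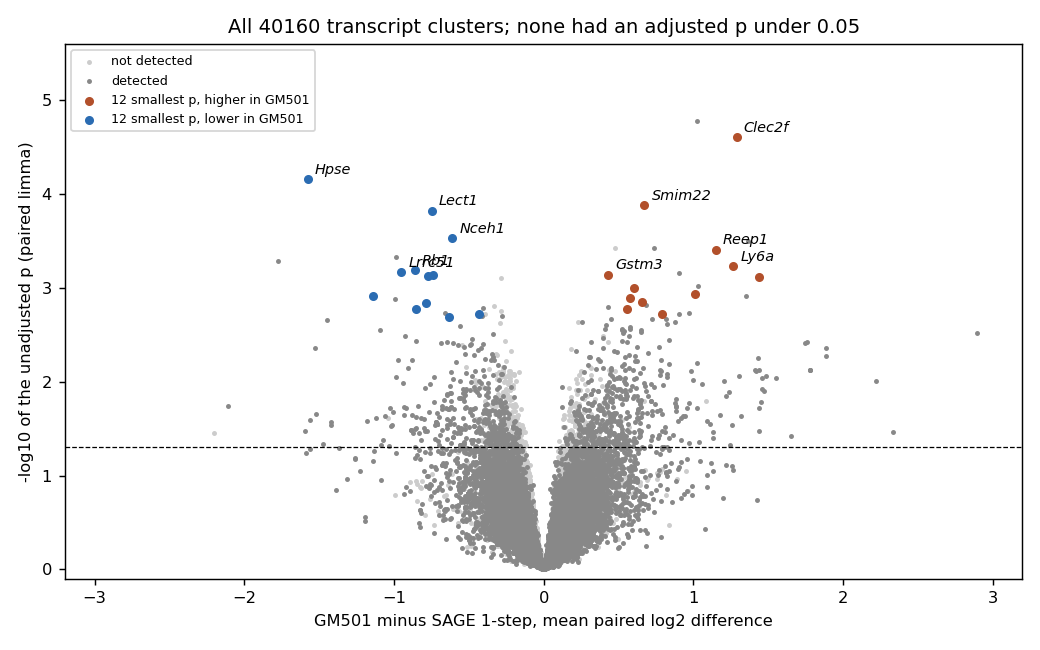
Mean paired log2 difference (GM501 minus SAGE 1-step) against −log10 of the unadjusted p for 40160 transcript clusters, with the 12 genes of smallest p in each direction coloured. The dashed line marks an unadjusted p of 0.05, which 1249 transcript clusters passed, and no point passed after adjustment.

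The genes with the smallest unadjusted p are given as a description of where the media lie farthest apart relative to the spread between pairs. None passed the adjusted test, and they were selected for their small p. The 12 with positive differences were Clec2f, Smim22, Reep1, Ly6a, Gstm3, Nat1, Fdxacb1, Npl, Ccdc94, Spry2, Mgarp and Heatr3, with differences from 0.43 to 1.44. The 12 with negative differences were Hpse, Lect1, Nceh1, Rb1, Lrrc51, Plk3, Zfp35, Ero1l, Slc35b3, Pik3r3, Mfap4 and Zxdb, with differences from -1.58 to -0.43. All were detected, and the sign held in at least 8 of 10 pairs, as the choice required. Of the 22570 detected transcript clusters, 13 were higher and 16 lower in GM501 in all 10 pairs, counts that were not tested. A choice by small p and sign favours such agreement, so it adds no support to the genes below.

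Clec2f, a C-type lectin-related surface protein (mm10 chromosome 6, 129014112 to 129020527), had log2 signals of 6.38 to 9.86 (median 7.96) in GM501 half-embryos and 4.90 to 9.13 (median 6.84) in SAGE 1-step half-embryos. The groups overlap, yet the GM501 half-embryo was higher in all 10 pairs, by 0.45 to 2.35. The mean difference was 1.29 (95% interval 0.85 to 1.73, unadjusted p = 2.48e-05, adjusted p = 0.498). The SD of the sister differences of Clec2f was 0.68 in the pairs split between the media, against 1.62 in the KSOM(aa) pairs. Clec2f was chosen for its small p in the split pairs, which favours a small SD there, so these SDs are not a fair comparison.

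Smim22, a small membrane protein of epithelia (chromosome 16, 5007288 to 5008309), was abundant in both media. Its signals ran from 12.42 to 15.11 (median 14.26) in GM501 and from 11.80 to 14.40 (median 13.41) in SAGE 1-step. The GM501 half-embryo was again higher in 10 of 10 pairs, by 0.16 to 1.31, with a mean of 0.67 (95% interval 0.40 to 0.94). Ly6a, the surface protein also called Sca-1 (chromosome 15, 74994877 to 74998031), ran from 9.29 to 15.15 (median 11.89) in GM501 and from 8.08 to 14.26 (median 10.43) in SAGE 1-step. Its paired differences were all above 0 but uneven, from 0.01 in embryo 17 to 3.28 in embryo 9.

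Npl, the lyase that breaks down sialic acid, had signals of 12.26 to 14.21 (median 13.19) in GM501 and 11.17 to 13.75 (median 12.38) in SAGE 1-step, and was higher in GM501 in 9 of 10 pairs. Reep1, which shapes tubules of the endoplasmic reticulum, averaged 9.82 ± 0.83 in GM501 and 8.67 ± 0.57 in SAGE 1-step (SD, n = 10 each), with embryo 12 the only pair of opposite sign. The remaining genes of this direction include Gstm3, a glutathione transferase, and Nat1, an arylamine acetyltransferase with a difference of 1.44 (95% interval 0.73 to 2.15).

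Hpse, the heparanase that cleaves heparan sulfate of the cell surface and matrix (chromosome 5, 100679484 to 100719716), had the smallest p among the negative differences. It lay between 5.00 and 6.30 (median 5.36) in GM501 and between 5.58 and 8.50 (median 7.26) in SAGE 1-step. Its level in GM501 was close to the detection level of 4.56 to 5.49, while 7 of 10 SAGE 1-step half-embryos exceeded every GM501 half-embryo. The difference was -1.58 (95% interval -2.17 to -0.98, unadjusted p = 6.98e-05, adjusted p = 0.934), negative in 10 of 10 pairs and of -3.21 to -0.41 by pair. In KSOM(aa) Hpse averaged 7.02 ± 1.38 (SD, n = 16), with an SD of 1.92 between sisters of the same medium.

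Rb1, the retinoblastoma protein that restrains entry into S phase, had signals of 5.39 to 7.50 (median 6.36) in GM501 and 5.82 to 7.95 (median 7.22) in SAGE 1-step, and a negative difference in 10 of 10 pairs (mean -0.86, 95% interval -1.28 to -0.44). Ero1l, the oxidase that drives disulfide formation in the endoplasmic reticulum, ran from 5.83 to 8.37 (median 7.10) in GM501 and from 6.78 to 8.90 (median 8.21) in SAGE 1-step. Its difference was -1.14 (95% interval -1.74 to -0.54), with embryo 15 the only pair of opposite sign. Pik3r3, a regulatory subunit of phosphatidylinositol 3-kinase, had a difference of -0.85, and Plk3, a polo-like kinase of the stress response, of -0.74. Lect1 and Nceh1, the hydrolase of cholesterol esters, were low in both media, at means of 5.00 and 4.59 in GM501 and 5.75 and 5.20 in SAGE 1-step.

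**Figure D3:**
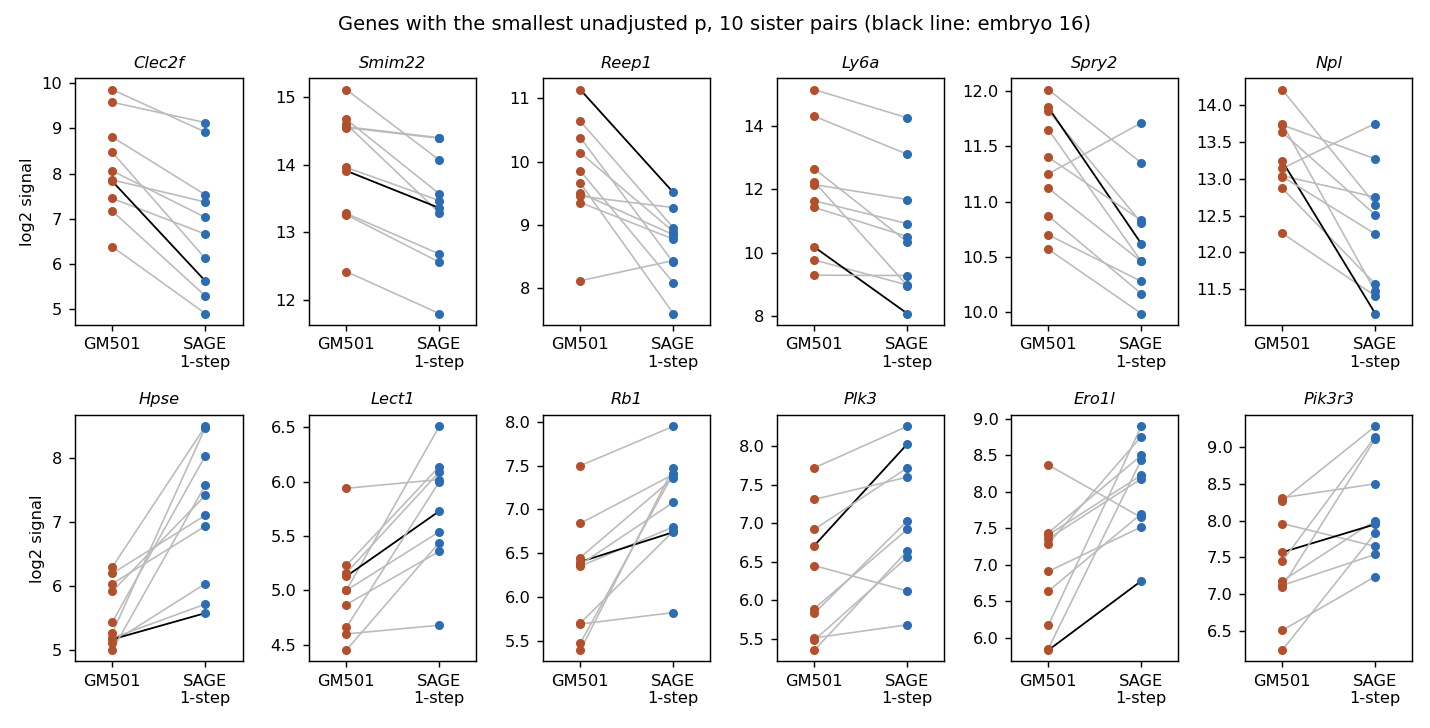
Log2 signals of 12 of the 24 genes with the smallest unadjusted p in 10 sister pairs, GM501 left and SAGE 1-step right, each line joining the sisters of 1 embryo (black: embryo 16). The lines of Clec2f and Smim22 all run downward and those of Hpse, Lect1 and Rb1 all upward, while the points of both media overlap in every panel.

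Lineage markers were present in both media and none passed the test. Of 6 epiblast markers all 6 were detected, as were 5 of 6 primitive endoderm and 6 of 6 trophectoderm markers. Sox17 lay above the detection level on no array of either medium, at 4.64 ± 0.23 in GM501 and 4.49 ± 0.16 in SAGE 1-step (SD, n = 10 each). None of 5 oocyte markers (Zp1, Zp2, Zp3, Gdf9, Bmp15) was detected, and of 3 fibroblast collagens only Col1a1 was, at means of 5.47 in GM501 and 5.54 in SAGE 1-step. Of 7 cumulus and granulosa cell markers, Has2 and Tnfaip6 were detected, Cyp11a1 lay above the level on 4 GM501 and 3 SAGE 1-step arrays, with signals up to 6.84 in GM501 and 6.96 in SAGE 1-step, and Amh, Fshr, Ptx3 and Cyp19a1 lay below the level on every array.

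Among the epiblast genes, Nanog had log2 signals of 9.85 to 14.44 (median 13.35) in GM501 and 10.61 to 13.25 (median 12.67) in SAGE 1-step. Both groups overlap, with 7 pairs above 0 and 3 below. The mean difference of 0.43 had a 95% interval of -0.57 to 1.42, and it was 0.05 without embryo 16, whose sisters had 14.44 in GM501 and 10.61 in SAGE 1-step. Pou5f1 and Sox2 had differences of 0.43 (95% interval -0.06 to 0.92) and 0.47 (-0.08 to 1.02), or 0.24 and 0.35 without embryo 16.

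Tdgf1, the Nodal co-receptor Cripto, had signals of 8.98 to 12.81 (median 10.55) in GM501 and 6.57 to 11.68 (median 9.42) in SAGE 1-step. It was higher in the GM501 half-embryo in 9 of 10 pairs. The difference of 1.47 (95% interval 0.37 to 2.57, unadjusted p = 0.0126, adjusted p = 1) was 0.94 without embryo 16, in which the GM501 half-embryo had 12.81 and the SAGE 1-step half-embryo 6.57. Its pseudogene Tdgf1-ps1, singled out after its values were seen, had a difference of 2.22 with the same outlying pair, and as the sequences are near copies the signals of both cannot be told apart with certainty. Prdm14, a repressor that guards the naive state, had signals of 5.16 to 7.61 (median 5.86) in GM501 and 4.38 to 6.21 (median 5.15) in SAGE 1-step. That SAGE 1-step median lay within the range of the detection level, 4.56 to 5.49. The difference of Prdm14 was 0.82 (95% interval 0.36 to 1.28, paired limma, unadjusted p = 0.00212) and 0.74 without embryo 16. Gdf3, a ligand of the Nodal pathway, had a difference of 0.51 and Dppa3, a maternal and pluripotency factor, one of 0.46.

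Over the list of 20 epiblast markers, 3 (Tdgf1, Prdm14, Gdf3) were higher at an unadjusted p under 0.05 and none lower, against 1.54% and 1.57% of all transcript clusters. The median difference of the list was 0.17, against -0.003 over all transcript clusters, and 0.07 without embryo 16. The median within a pair ran from -0.17 to 1.36 and was above 0 in 7 of 10 pairs. Of the 12 epiblast regulators that the study names, 11 had a positive mean difference and 1 (Klf2, -0.04) a negative one, with a list median of 0.09 and pair medians above 0 in 5 pairs and below 0 in 5. Without embryo 16, 7 of the 12 were positive, 4 negative and 1 (Gbx2) at 0, with a list median of 0.06. Cops3, Esrrb, Foxd3, Gbx2, Tfcp2l1 and Sall4 had differences of 0.01 to 0.11 over all pairs, and Cops3 (-0.01), Sall4 (-0.14) and Tfcp2l1 (-0.16) had negative ones without embryo 16. Tfcp2l1 was lower in GM501 in 7 of 10 pairs. Esrrb and Gbx2 were not detected.

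Primitive endoderm and trophectoderm lists were centred near 0. Of 21 primitive endoderm markers none reached an unadjusted p under 0.05, and their median difference was 0.01. Without embryo 16 the median was -0.02 and 1 member, Fgfr2, was lower at that p. Gata6 averaged 11.81 ± 0.43 in GM501 and 11.58 ± 0.46 in SAGE 1-step (SD, n = 10 each). Fgfr2, the FGF receptor 2, had a difference of -0.30 (95% interval -0.59 to 0.002), which was -0.34 without embryo 16 (unadjusted p = 0.0335). Of 24 trophectoderm markers 2 were lower at an unadjusted p under 0.05, against 1.57% of all transcript clusters. They were the keratin Krt7 (-0.52, in 9 of 10 pairs) and Tspan8 (-0.26), and the list median was 0.04. Without embryo 16 only 1 of the 24 was lower at that p. Cdx2, the transcription factor of trophectoderm, lay between 11.40 and 12.71 in GM501 and between 11.51 and 12.34 in SAGE 1-step. Its difference of 0.12 had a 95% interval of -0.20 to 0.45, so a difference in Cdx2 of 2-fold lies outside the interval.

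**Figure D4:**
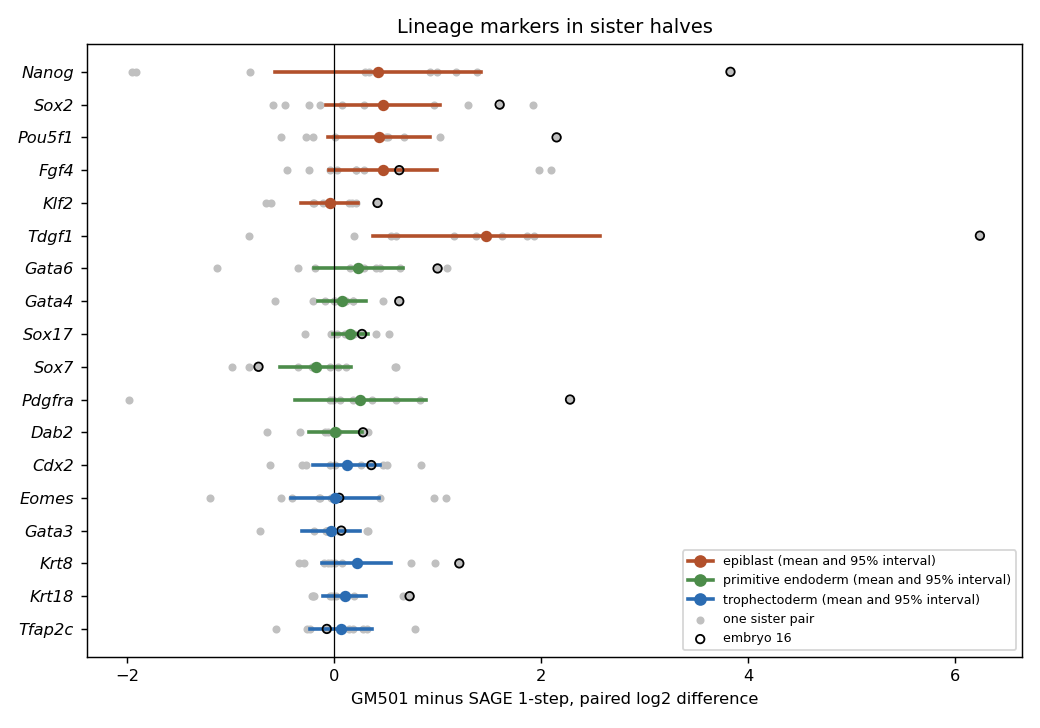
Paired log2 differences (GM501 minus SAGE 1-step) of 18 lineage markers: grey points are single sister pairs, the ring is embryo 16, and the coloured point and bar are the mean and its 95% interval from the paired limma fit. Only the interval of Tdgf1 (0.37 to 2.57) leaves out 0, and the rings of Nanog and Tdgf1 lie at 3.83 and 6.24, beyond the other pairs.

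Spry2, a feedback inhibitor that FGF signalling induces (chromosome 14, 105891947 to 105896819), belongs to the genes of smallest p. Its signals were 10.57 to 12.01 (median 11.32) in GM501 and 9.99 to 11.71 (median 10.54) in SAGE 1-step. The GM501 half-embryo was higher in 9 pairs by 0.42 to 1.23, and lower in embryo 10 by 0.46. The mean difference was 0.66 (95% interval 0.31 to 1.01, unadjusted p = 0.00141, adjusted p = 1). Spry4, of the same family but not detected, had a difference of 0.37. In the FGF and MAPK feedback list 2 of 17 genes, these 2, were higher at an unadjusted p under 0.05 and none was lower. Over all transcript clusters, 1.54% were higher and 1.57% lower at that p. The list median was 0.09. Without embryo 16, Fgfr2 was lower as well.

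Over all 44 lists, which hold 862 genes, 17 (1.97%) were higher and 18 (2.09%) were lower at an unadjusted p under 0.05, close to the 1.54% and 1.57% over all transcript clusters, and none had an adjusted p under 0.05. The list medians ran from -0.23 to 0.20, with 24 above and 20 below 0. Without embryo 16, 17 of the 862 listed genes were higher and 26 lower at that p. Of all transcript clusters, 3.29% were then higher and 1.58% lower. Both sets are unlike, since 711 of the 862 listed genes were detected, against 22570 of all 40160 transcript clusters. The median difference over all transcript clusters was 0.02 without embryo 16 and -0.003 with it. What made the directions differ was not tested. Leaving out embryo 16 also changed the sign of the median in 10 lists and the counts in 21. In 43 of the 44 lists the medians of single pairs lay on both sides of 0.

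The lowest median, -0.23, belonged to endoplasmic reticulum folding, in which 18 of 20 genes had a negative mean difference. In that list 3 genes were lower at an unadjusted p under 0.05, against 1.57% of all transcript clusters. These were Creld2, a folding factor induced by unfolded protein (-0.62), Dnajc3, a co-chaperone (-0.53), and Edem1, which passes misfolded glycoproteins to degradation (-0.43). Creld2 lay between 10.79 and 13.48 (median 12.11) in GM501 and between 11.95 and 13.90 (median 12.84) in SAGE 1-step, and was lower in GM501 in 7 of 10 pairs. Hspa5, the main chaperone of the compartment, had a difference of -0.37 with 7 pairs below and 3 above 0. The list median by pair ran from -0.79 to 0.29 and was negative in 6 of 10 pairs. Without embryo 16 the list median was -0.27 and 4 members were lower at an unadjusted p under 0.05, against 1.58% of all transcript clusters. The 4 were Creld2, Dnajc3, Hspa5 and the chaperone Hsp90b1, while Edem1 was not among them. The list median was -0.34 in embryos 9 to 14 and 0.02 in embryos 15 to 18. Ero1l of the genes above acts in the same compartment and was not a member of the list.

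The amino acid deprivation response, which Atf4 drives, had a median of -0.11 over 34 genes. Slc7a1, the importer of cationic amino acids, was its only member with an unadjusted p under 0.05. It had signals of 8.17 to 11.46 (median 9.24) in GM501 and 8.86 to 11.83 (median 9.98) in SAGE 1-step, a difference of -0.67 (95% interval -1.19 to -0.15). Atf4 itself had a difference of -0.02, and Asns, the asparagine synthetase, one of -0.29. Without embryo 16 a second member, the amino acid importer Slc38a2 (-0.84), was lower at that p. The list median was -0.30 in embryos 9 to 14 and 0.17 in embryos 15 to 18. Over 33 amino acid transporters the median was -0.06, and 1 member was lower at an unadjusted p under 0.05. Without embryo 16 that median was -0.07, and 3 of the 33 were lower and 0 higher at that p. Of all transcript clusters, 1.58% were then lower and 3.29% higher.

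Among lipid and energy genes, cholesterol synthesis and uptake had 22 of 26 genes with a positive mean difference but none with an unadjusted p under 0.05. Without embryo 16, 14 were positive and 11 negative. The median of 0.14 was 0.02 without embryo 16, in which the list median was 1.17. Glycolysis had a median of 0.01 over 21 genes and no gene with an unadjusted p under 0.05. The tricarboxylic acid cycle had -0.01 over 24 genes and again none. Nuclear respiratory chain genes were tightly bounded, with a median SD of paired differences of 0.26 over 39 detected genes. All 39 intervals lay between -1 and 1, and Cox6b1 (-0.27) and Ndufa1 (-0.20) were the only members with an unadjusted p under 0.05. Slc2a8, a glucose transporter, had a difference of 0.31 and was higher in GM501 in 9 of 10 pairs.

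Oxidative stress genes had a median of 0.0005 over 28 genes. The p53 targets had one of -0.02 over 25 genes, with Plk3 and Plk2 (-0.73) under an unadjusted p of 0.05. Without embryo 16, 1 oxidative stress gene was lower at that p, and of the p53 targets 1 was higher and 2 were lower. Cell cycle genes had a median of 0.06 over 35 genes, which was -0.04 without embryo 16, and Aurka, a mitotic kinase (0.44), and Ccne2, cyclin E2 (0.54), were higher at an unadjusted p under 0.05, while without embryo 16 the list held 0 such genes. In embryo 16 the list median was 1.04. DNA methylation genes had a median of 0.14, or 0.05 without embryo 16, and Dnmt1, the maintenance methyltransferase, a difference of 0.47 that was 0.28 without embryo 16. Imprinted genes had a median of -0.03 over 35 genes, the narrowest spread of pair medians of any list, from -0.11 to 0. Single imprinted genes were not narrow. The detected ones had a median SD of paired differences of 0.60, against 0.48 over all detected transcript clusters.

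**Figure D5:**
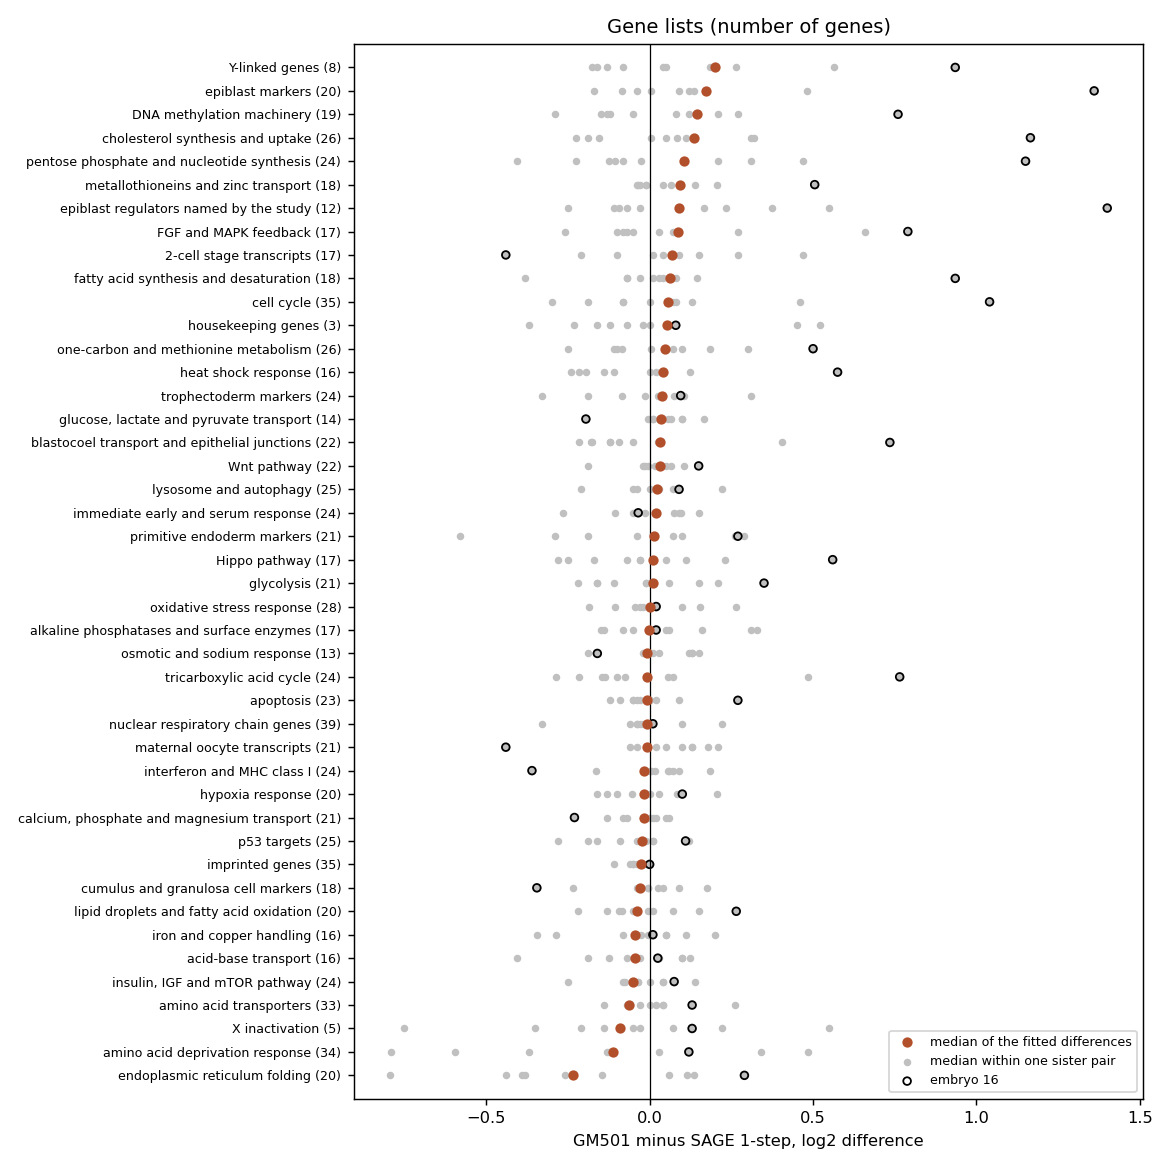
Median log2 difference (GM501 minus SAGE 1-step) of 44 gene lists, with the number of genes in brackets: the coloured point is the median of the fitted differences, grey points are the medians within single sister pairs and the ring is embryo 16. Coloured points lie between -0.23 and 0.20, and the ring lies to the right of all other pairs in lists such as epiblast markers (1.36) and cholesterol synthesis (1.17).

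Ion transport held some of the larger differences among the listed genes. Trpv5, an epithelial calcium channel, had signals of 7.21 to 12.26 (median 10.12) in GM501 and 9.88 to 13.29 (median 11.27) in SAGE 1-step. Its difference was -1.53 (95% interval -2.49 to -0.57, unadjusted p = 0.00435, adjusted p = 1). The pairs were uneven, since 7 were below 0, down to -3.36 in embryo 17, and 3 were above 0, up to 0.78 in embryo 15. Trpm6, a magnesium channel, had a difference of -0.64 with 8 of 10 pairs below 0. S100g, a calcium-binding protein that was not detected, had -0.29. The other members of the calcium, phosphate and magnesium list brought its median to -0.02.

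Some genes were singled out after their values were seen because both media lay on the same side of KSOM(aa), whose arrays are also a separate scan set, so that medium and set cannot be told apart there. Slc39a4, a zinc importer, averaged 8.97 ± 0.97 in GM501 and 9.12 ± 0.77 in SAGE 1-step (SD, n = 10 each), and 12.05 ± 0.88 in KSOM(aa) (SD, n = 16). Between GM501 and SAGE 1-step it had a difference of -0.14 (95% interval -0.70 to 0.42), negative in 8 of 10 pairs and 2.02 in embryo 16, without which it was -0.38 (unadjusted p = 0.0496). Wls, the carrier of Wnt proteins to the cell surface, averaged 10.92 in GM501, 11.11 in SAGE 1-step and 8.98 in KSOM(aa), with a difference of -0.19 (-0.63 to 0.24) between GM501 and SAGE 1-step that was -0.09 without embryo 16. Both intervals over all 10 pairs lie within a factor of 2. Those of Alppl2, a placental-type alkaline phosphatase (-1.27 to 0.79), Slc34a2, a phosphate importer (-0.20 to 1.16), and Slc7a8, an amino acid transporter (-1.35 to 0.56), reach beyond it on one side.

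Some genes differed widely between sisters without leaning to either medium. Nr0b1, a nuclear receptor of the pluripotency network on the X chromosome, was among the transcript clusters of widest paired differences, after adapt33_2 and the zinc finger gene Zfp72, and was singled out for this after its values were seen. Its signals ran from 5.28 to 11.04 (median 8.16) in GM501 and from 5.21 to 12.66 (median 7.72) in SAGE 1-step. The difference was -6.68 in embryo 9 and 4.83 in embryo 11, with 5 pairs above and 5 below 0 and a mean of -0.09 (95% interval -1.97 to 1.79). The SD of the paired difference was 3.27, against 0.66 between KSOM(aa) sisters. Phlda2, an imprinted gene of placental growth, had an SD of 3.10, against 4.59 between KSOM(aa) sisters, and differences from -7.20 to 4.15. Epiblast markers as a list had a median SD of 0.67 over 19 detected genes, against 0.63 between KSOM(aa) sisters, trophectoderm markers 0.44 against 0.40, primitive endoderm markers 0.61 against 0.82, and all detected transcript clusters 0.48 against 0.43. Xist, the RNA of the inactive X chromosome, had a paired difference of -2.19 to 1.00 within embryos while its signal ran from 5.92 to 16.60 in GM501 and from 5.57 to 16.93 in SAGE 1-step.

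Embryo 16 held the widest pair, with 681 transcript clusters higher in the GM501 half-embryo by over 2 on the log2 scale and 367 lower. Embryo 9 leaned the other way, with 118 higher and 566 lower. The genes farthest apart in embryo 16, chosen for that, include Fbp2, a fructose bisphosphatase of gluconeogenesis, with 14.96 in the GM501 half-embryo and 10.83 in its SAGE 1-step sister, while the other 9 pairs differed by -1.57 to 0.91. Bysl, a factor of ribosome assembly, had 10.27 in GM501 and 5.41 in SAGE 1-step (other pairs -2.40 to 1.81). Trip13, an ATPase of the spindle checkpoint, had 11.66 in GM501 and 7.28 in SAGE 1-step (other pairs -2.59 to 0.81). In the opposite direction, S100a1, a calcium-binding protein, had 6.41 in GM501 and 10.94 in SAGE 1-step (other pairs -2.05 to 1.96), and Gsta2, a glutathione transferase, 9.09 in GM501 and 12.04 in SAGE 1-step (other pairs -1.64 to 1.11). These are values of 1 pair, and what set embryo 16 apart was not tested.

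The medium difference was also compared between embryos 9 to 14 and embryos 15 to 18, since their signals lay in separate ranges. The interaction of medium and embryo set called 0 of 40160 transcript clusters in limma, with a smallest adjusted p of 0.707. At an unadjusted p under 0.05 there were 2763 (6.88%), and 465 at an unadjusted p under 0.01. Mest, an imprinted hydrolase gene singled out after its values were seen, had a difference of -1.07 in embryos 9 to 14, where all 6 pairs lay between -1.53 and -0.47, and of 0.66 in embryos 15 to 18, where all 4 lay between 0.03 and 1.33 (interaction, unadjusted p = 1.04e-04, adjusted p = 0.707). Noa1, a mitochondrial GTPase, showed the same signs, with -0.66 in embryos 9 to 14 and 0.68 in embryos 15 to 18 (adjusted p = 0.707). Sox2 had -0.03 and 1.22 and Nanog -0.44 and 1.73 in these sets (adjusted p = 0.707 for both), embryo 16 being 1 of the 4 pairs of embryos 15 to 18.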

How the data were processed

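The authors amplified total RNA of single half-embryos (WT Pico kit) and deposited log2 signals from the SST-RMA method (probe-level background and multiarray averaging), annotated on mm10; which arrays were normalized together is not given in the sources used here. Half-embryo 1a has log2 signals as well and was used as such. Its deposited column was entered as a score only because the value of 1 transcript cluster lies outside any log2 range. That transcript cluster was left out of 65956. A second deposited table held identical values.

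The paired fit used limma 3.58.1 in R 4.3.3 (embryo block, trended prior variance, 2-sided, Benjamini-Hochberg over 40160, threshold 0.05); whole-array values used exact sign-flip tests (smallest possible p 0.00195). Sister pairing follows from the embryo numbers. Deviations from the mean of each medium within each embryo set correlated at 0.07 to 0.40 (median 0.20) between sisters. Between other GM501 and SAGE 1-step half-embryos of the same embryo set the median was -0.05 (highest 0.21). Such deviations sum to 0 within a set and medium, so correlations above 0 between sisters bring the others below 0. For a gene with several transcript clusters, the one with 1 symbol and the highest mean was taken.

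The 44 lists and their genes were chosen with earlier results of these data known, while the half-embryos were chosen by their labels. Named genes were to be the 12 largest differences per direction with an adjusted p under 0.05, filled by smallest p (detected, 1 symbol, same sign in at least 8 of 10 pairs, no predicted, receptor or small RNA genes), the epiblast and housekeeping genes the study names, Cdx2, Sox17 and, per list, at most 3 members of smallest p. Alternatives concerned pairing, normalization, filters, embryos, tests and the value table.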

Additional observations from a re-analysis of the deposited data

Results flagged for a closer look

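Of 62 sets of 10 values examined for a half-embryo or pair far from the other 9, 8 held one. Chance alone flags about 1 in 20 such sets if they are independent. These sets share the same embryos, and some of their genes were chosen by small p and sign. The number flagged can therefore not be set against that rate. Embryo 10 accounted for 4 of the 8. Its paired difference was 1.04 for Rn18s (other pairs -0.18 to 0.29), 1.08 for Gapdh (other pairs -0.37 to 0.18), -0.46 for Spry2 (other pairs 0.42 to 1.23) and 0.93 for Cops3 (other pairs -0.47 to 0.25). Embryo 16 accounted for 3. The Hprt signal of its SAGE 1-step half-embryo was 13.51 (other SAGE 1-step half-embryos 14.65 to 15.25), and its paired difference was 6.24 for Tdgf1 (other pairs -0.82 to 1.93) and 1.20 for Klf4 (other pairs -0.25 to 0.45). In embryo 18 the paired difference of Zfp35 was 0.61 (other pairs -1.31 to -0.47). What set these pairs apart was not tested.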

How the results depend on the processing

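No alternative gave more than 1 call. When the embryo entered as a random replicate block, with all 3 media fitted, 1 transcript cluster, the predicted gene Gm7265, had an adjusted p under 0.05 (limma, adjusted p = 0.041). In the paired fit its log2 difference was 1.37 with an unadjusted p of 3.16e-04 and an adjusted p of 1, and it was higher in GM501 in 8 of 10 pairs. With no replicate block, 0 were called. The number at an unadjusted p under 0.01 was 231 in the paired fit and 60 with no replicate block, 353 with the random block, 376 in embryos 9 to 14 only, 360 with array weights and 62 with the unpaired t-test. It was 198 to 320 when each embryo was left out in turn, highest without embryo 16. The cause of these shifts was not tested. The random block draws on the KSOM(aa) arrays as well.

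Of 44 list medians, all moved by less than the SD of the pair medians under quantile normalization, centring on the array median and embryos 9 to 14 only. The same held without embryo 16 (added after the values were seen), which says little. That SD includes embryo 16, and leaving out 1 of 10 pairs can hardly move a median by more. Without embryo 16 the median changed sign in 10 lists. The median of Wnt pathway genes was 0.19 and that of one-carbon and methionine genes 0.29 in embryos 15 to 18 only, and that of imprinted genes 0.0175 in embryos 15 to 18 only and -0.10 with scaling to Actb, Gapdh and Hprt. Of 170 named genes, 16 took the opposite sign in embryos 15 to 18 only, 11 in embryos 9 to 14 only, 6 with that scaling, 5 with array weights, 0 to 4 when an embryo was left out and at most 1 otherwise. The 24 genes of smallest p were not among them, which their choice by p and sign largely fixes. Low signals near the receptor background limit what can be said of genes such as Sox17 and Esrrb.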

Other observations

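Further gene groups had medians near 0, and none of their genes passed the adjusted test in the paired limma fit. Lysosome and autophagy genes had 2 of 25 members higher at an unadjusted p under 0.05, against 1.54% of all transcript clusters. Gabarapl1, which lines autophagosome membranes, had log2 signals of 7.37 to 9.71 (median 9.15) in GM501 and 6.45 to 9.27 (median 8.15) in SAGE 1-step, and its difference of 0.79 came from 6 pairs above and 4 below 0, with 3.03 in embryo 10. Map1lc3b, of the same family, had a smaller difference of 0.23 that was positive in 9 of 10 pairs. Ftl1, the ferritin light chain, had 0.35 and was higher in GM501 in 8 of 10 pairs, with 0.29 without embryo 16 (unadjusted p = 0.0506). Vim, an intermediate filament gene that stood in the cumulus and granulosa cell list and is also used by other cell types, had -0.88 with 7 of 10 pairs below 0, while that list of 18 genes had a median of -0.03.

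Kcnq1ot1, the imprinted noncoding RNA of the Kcnq1 domain, had log2 signals of 6.60 to 7.73 (median 6.88) in GM501 and 6.63 to 8.19 (median 7.16) in SAGE 1-step. Its difference of -0.36 (95% interval -0.67 to -0.06) was negative in 8 of 10 pairs. The one-carbon and methionine list held a gene in each direction, Amt of glycine cleavage (0.52) and Mthfd1l of mitochondrial folate metabolism (-0.54), and without embryo 16 neither reached an unadjusted p under 0.05. Metallothionein and zinc transport genes (18 genes, median 0.09), fatty acid synthesis (18, 0.06), the hypoxia response (20, -0.02), apoptosis (23, -0.008) and interferon and MHC class I genes (24, -0.02) had no member with an unadjusted p under 0.05. Without embryo 16 the median of fatty acid synthesis was -0.10 and that of interferon and MHC class I genes 0.02. The fatty acid, hypoxia and zinc lists then held 1 lower member each at that p, Acaca (-0.32), P4ha1 (-0.76) and Slc39a4 (-0.38).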
